A study of Aedes aegypti with 12 samples.

Results

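Genes annotated as xanthine dehydrogenase in the yellow fever mosquito Aedes aegypti, namely LOC23687731, LOC5573280, LOC5573274 and LOC5573295, were described across brain and fat body. They are 4 of 19256 genes in the deposited tables and 4 of 11 whose description there names xanthine dehydrogenase. The name rests on that description, and which of the genes form urate was not tested. The 4 genes were proposed with the brain results known, in which all 4 were higher in the mutant. Their brain difference between genotypes is therefore given as a description, without a test. RNA was sequenced from brain and fat body of mosquitoes mutant for AaegGr34, a gustatory receptor gene, and of wild-type mosquitoes of the Liverpool strain, with 3 libraries for each of the 4 groups and 12 in all. The groups were Gr34 mutant brain, wild-type brain, Gr34 mutant fat body and wild-type fat body. All came from colonies reared alike on sucrose, with blood from a membrane feeder. The labels give neither the lesion in Gr34 nor the background of the mutant strain, nor the sex, age or last meal of the animals. They call the libraries biological replicates without saying which animals or pools stood behind each, so a p-value here measures only library-to-library spread, which may be technical.

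Xanthine dehydrogenase catalyses the last steps that turn purines into uric acid, oxidising hypoxanthine to xanthine and xanthine to urate. The enzyme is a homodimer that carries a molybdenum cofactor, iron-sulfur clusters and FAD, and it is closely related to the aldehyde oxidases. In insects urate is a main vehicle for waste nitrogen and is made and stored largely in the fat body; in Drosophila the xanthine dehydrogenase gene is rosy, named for its eye colour. Mosquitoes that digest blood release much ammonia and excrete part of its nitrogen as uric acid.

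The libraries held between 18.5 M and 31.3 M counts each, and values are given as counts, as counts scaled to a common library size with TMM factors (CPM), and as TPM, which also allows for gene length. No 2 replicates of a group agreed within sampling noise (chi-square of 20.8 to 315 for each degree of freedom). Gr34 itself (LOC5570009) had 6, 11 and 28 counts in mutant brain, against 24, 22 and 7 in wild-type brain, and 2, 11 and 2 counts in mutant fat body, against 2, 4 and 16 in wild-type fat body. These counts overlapped between genotypes in both tissues, and with the lesion not given they do not check the labels. Marker genes were counted to see what the dissected tissue held. Photoreceptor markers took at most 0.125% of counts in fat body, against 21.1 to 22.9% in mutant brain and 23.1 to 27.9% in wild-type brain. Neuron and glia markers took at most 0.106% of counts in fat body, against 0.408 to 0.478% in mutant brain and 0.459 to 0.516% in wild-type brain. Fat body markers took 0.243 to 0.438% in mutant fat body and 0.284 to 0.407% in wild-type fat body, above the share in any brain library.

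The 4 genes lie together on chromosome 2 (assembly AaegL5.0). LOC5573274, described as xanthine dehydrogenase/oxidase with the second designation probable aldehyde oxidase 4, spans 182632056 to 182636524 on the plus strand with 6 exons. LOC5573280, xanthine dehydrogenase 1, spans 182683603 to 182686891 on the plus strand with 5 exons. LOC23687731, also xanthine dehydrogenase 1, starts 9369 bp further on and spans 182696261 to 182707641 on the minus strand with 7 exons. LOC5573295, xanthine dehydrogenase/oxidase, spans 182978356 to 183004002 on the minus strand with 8 exons. A block of 429835 bp, holding 22 annotated genes, contains all 4 and 4 further xanthine dehydrogenase genes. None of the 4 overlaps another annotated gene. LOC23687731 stands head to head with LOC5573282, a further xanthine dehydrogenase 1 gene on the opposite strand, with 83 bp between them. Only LOC5573274 and LOC5573295 had a value that was not whole, 1 library each (18.5 and 87.5 counts). The other values were whole.

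In brain the 4 genes were all higher in the mutant, by 7.79-fold for LOC23687731, 6.44-fold for LOC5573280, 4.42-fold for LOC5573274 and 2.34-fold for LOC5573295. LOC23687731 had 199, 176 and 109 counts in mutant brain, against 40, 21 and 14 in wild-type brain. That is 7.15 ± 2.04 CPM in mutant brain and 0.912 ± 0.287 CPM in wild-type brain (SD, n = 3 each), and the lowest mutant library (4.92 CPM) stood above the highest wild-type one (1.23 CPM). The log2 fold change, mutant over wild type, was 2.96 with a standard error (SE) of 0.32.

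LOC5573280 was the scarcest of the 4 and the most even among mutant brains, with 34, 37 and 37 counts in mutant brain, against 12, 5 and 3 in wild-type brain. Its level was 1.60 ± 0.073 CPM in mutant brain and 0.237 ± 0.117 CPM in wild-type brain (SD, n = 3 each), and the log2 fold change was 2.69 (SE 0.37). It passed the filter on low counts in brain through the mutant libraries. LOC5573274 had 81, 65 and 50 counts in mutant brain, against 25, 18.5 and 10 in wild-type brain, or 2.90 ± 0.69 CPM in mutant brain and 0.655 ± 0.156 CPM in wild-type brain (SD, n = 3 each). Its log2 fold change was 2.14 (SE 0.31).

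LOC5573295 was the most abundant and moved least, with 487, 552 and 333 counts in mutant brain, against 378, 203 and 136 in wild-type brain. Its level was 20.2 ± 4.6 CPM in mutant brain and 8.74 ± 2.61 CPM in wild-type brain (SD, n = 3 each), with a log2 fold change of 1.23 (SE 0.25). For each of the 4 genes no mutant brain library overlapped a wild-type one. Across the 11848 genes tested in brain, 13.6% were higher in the mutant without overlap. With edgeR's quasi-likelihood test, 8.86% were called, meaning an adjusted p under 0.05, and 4.60% were called higher. By log2 fold change from the top the 4 genes ranked 89, 106, 148 and 401 in the order LOC23687731, LOC5573280, LOC5573274, LOC5573295. The genes were chosen for this contrast, and nothing is read from these shares.

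**Figure D1:**
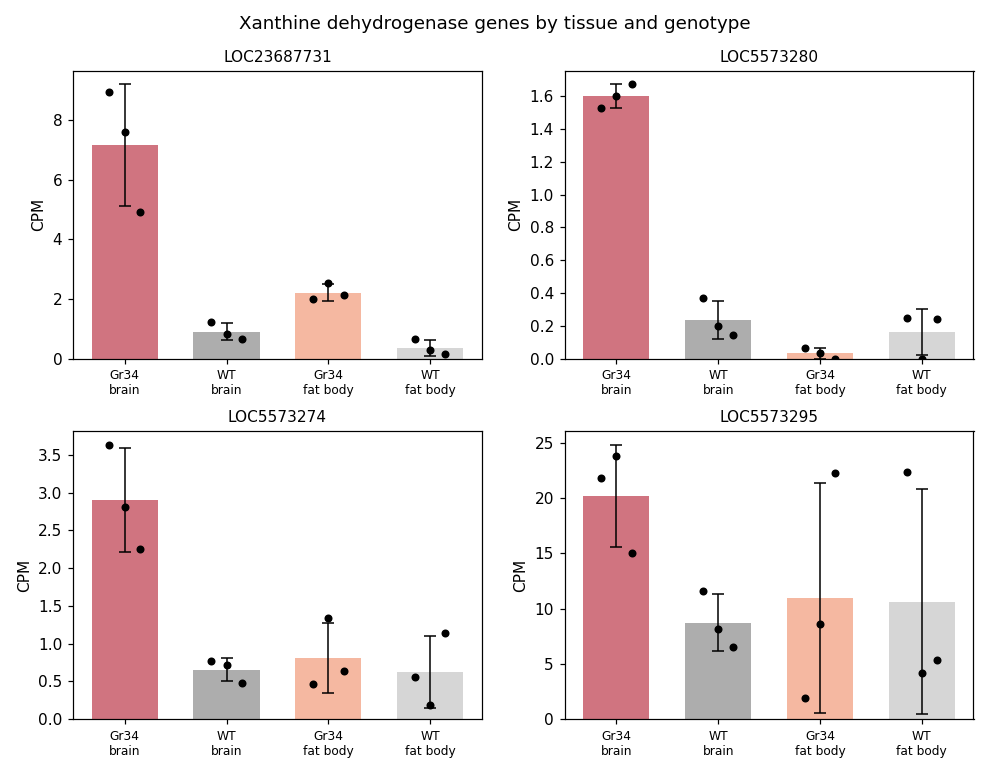
Level of each of the 4 genes in CPM (y axis, from 0, a separate scale for each gene) in the 4 groups (x axis). Bars are means, error bars SD and points the 3 libraries of a group; LOC23687731 stands higher in the mutant in both tissues, while the other 3 genes are apart between genotypes in brain and overlap in fat body.

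Within a library the order of the genes can be read from TPM. In mutant brain LOC5573295 stood at 9.95 ± 2.62 TPM, LOC23687731 at 3.65 ± 1.25 TPM, LOC5573274 at 1.44 ± 0.44 TPM and LOC5573280 at 1.11 ± 0.023 TPM (SD, n = 3 each). The first 3 did not overlap one another, while LOC5573274 (1.05 to 1.91 TPM) overlapped LOC5573280 (1.09 to 1.13 TPM). In wild-type brain the order was the same, at 4.18 ± 1.32 TPM, 0.450 ± 0.148 TPM, 0.319 ± 0.092 TPM and 0.161 ± 0.080 TPM (SD, n = 3 each). There only LOC5573295 stood clear of the others, and each neighbouring pair below it overlapped.

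Fat body, where insects make most of their urate, was the other tissue measured. The sources used here do not record whether its values were known when the genes were proposed, so it is no independent check of the brain difference. LOC23687731 had 30, 72 and 37 counts in mutant fat body, against 11, 6 and 4 in wild-type fat body. That is 2.22 ± 0.286 CPM in mutant fat body and 0.375 ± 0.268 CPM in wild-type fat body (SD, n = 3 each), with the lowest mutant library (2.00 CPM) above the highest wild-type one (0.676 CPM). The fold was 6.22 and the log2 fold change 2.64 (SE 0.58), but edgeR's quasi-likelihood test over 11558 genes gave an adjusted p of 0.161 (unadjusted p = 0.00224), so the gene was not called. In fat body 0.234% of genes were called, 7.85% had an unadjusted p under 0.05 and 5.43% were higher in the mutant without overlap. LOC23687731 passed the filter on low counts there through the mutant alone, with 3 mutant libraries and 0 wild-type libraries at the minimum. With no filter its adjusted p was 0.155 from edgeR's quasi-likelihood test. The two-sided exact permutation test gave p = 0.1, the smallest that 3 against 3 libraries allow.

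The adjusted p of LOC23687731 in fat body differed between tools. As said above, fat body is no independent check of the brain difference, so the values are a description. The adjusted p was 0.00185 with DESeq2 and 0.0129 in an edgeR fit of all 12 libraries. In the other alternatives tried it ran from 0.0940 to 0.643. DESeq2 called 2.77% of genes in fat body. The authors' deposited table gave the gene a log2 fold change of 2.68 with an adjusted p of 0.00200 in fat body. That table called 384 of 13281 genes.

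The other 3 genes did not separate the genotypes in fat body. LOC5573274 had 7, 38 and 11 counts in mutant fat body, against 9, 4 and 28 in wild-type fat body, or 0.813 ± 0.465 CPM in mutant and 0.626 ± 0.475 CPM in wild type (SD, n = 3 each). Its log2 fold change was 0.41 (SE 0.72), with an adjusted p of 1.00 from edgeR's quasi-likelihood test. The sign of that difference turned without mutant fat body replicate 2 (-0.14) and without wild-type fat body replicate 2 (-0.04).

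LOC5573295 varied most among fat bodies, with 28, 244 and 389 counts in mutant fat body, against 364, 87.5 and 132 in wild-type fat body. Its level was 10.9 ± 10.4 CPM in mutant fat body and 10.6 ± 10.2 CPM in wild-type fat body (SD, n = 3 each), and the highest library stood at 22.3 CPM in the mutant and 22.4 CPM in wild type. The log2 fold change was 0.09 (SE 0.92) with an adjusted p of 1.00 from edgeR's quasi-likelihood test, and it turned to -0.96 without mutant fat body replicate 3, -0.31 without wild-type fat body replicate 2 and -0.24 without wild-type fat body replicate 3. Without wild-type fat body replicate 1 it was 1.26. With an SE of that size, a fat body difference like the one in brain was not detectable.

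LOC5573280 was nearly silent in fat body, with 1, 1 and 0 counts in mutant fat body, against 4, 0 and 6 in wild-type fat body, too few to enter the test. The 2 counts of the mutant against the 10 of wild type gave a ratio of 0.204 per scaled library size (95% Clopper-Pearson interval 0.0217 to 0.956, counting error only). The wild-type counts fell in only 2 of 3 libraries, so the groups overlapped. In TPM, LOC5573295 headed the 4 genes in fat body too, at 3.96 ± 3.49 TPM in the mutant and 2.97 ± 1.73 TPM in wild type (SD, n = 3 each). In mutant fat body it overlapped LOC23687731 (0.465 to 1.24 TPM). In wild-type fat body LOC5573274, LOC23687731 and LOC5573280 stood at 0.237, 0.114 and 0.078 TPM and overlapped one another.

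Fat body was next set against brain within wild type, with the spread estimated over all 12 libraries. Wild-type brain is one side of the contrast that chose the genes, so their values are a description, with no test. The log2 difference, fat body minus brain, was -1.38 (SE 0.47) for LOC23687731, -0.62 (SE 0.75) for LOC5573280, -0.09 (SE 0.57) for LOC5573274 and 0.22 (SE 0.75) for LOC5573295. LOC5573280 passed the filter on low counts in this fit through mutant brain only.

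With the genotypes averaged, mutant brain, whose high levels chose the genes, enters the contrast. There 75.7% of genes were called, 36.4% lower in fat body, and nothing is read from the calls of the 4 genes. The averaged log2 difference, fat body minus brain, was -1.51 (SE 0.31) for LOC23687731, -2.99 (SE 0.59) for LOC5573280, -0.94 (SE 0.39) for LOC5573274 and -0.31 (SE 0.53) for LOC5573295. Within the mutant it was -1.65 for LOC23687731, -5.36 for LOC5573280, -1.78 for LOC5573274 and -0.84 for LOC5573295. How far the genotype difference differed between tissues was not tested, since the brain contrast chose the genes. In bulk tissue fewer cells of a type and less RNA per cell cannot be told apart.

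The rest of the family was used to see whether the whole group of genes behaved alike. Of the 7 other genes described as xanthine dehydrogenase, LOC5567568 on chromosome 1 had no count in any library and the other 6 were tested. In brain none of the 6 was called with edgeR, 3 had an unadjusted p under 0.05, and DESeq2 called 1, LOC5575671. Over all genes tested in brain, edgeR called 8.86%, 22.8% had an unadjusted p under 0.05 with edgeR, and DESeq2 called 11.7%. LOC5575671, the most abundant of the family, had 20.0 ± 2.5 CPM in mutant brain and 13.1 ± 2.7 CPM in wild-type brain (SD, n = 3 each), with a log2 fold change of 0.63 (edgeR adjusted p = 0.0750). LOC5573294 had 2.15 ± 1.66 CPM in mutant brain and 0.772 ± 0.287 CPM in wild-type brain (log2 fold change 1.49, edgeR adjusted p = 0.186), without overlap. Of all genes tested in brain, 13.6% were higher in the mutant without overlap.

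LOC5573282, the head-to-head partner of LOC23687731, went the other way. It had 0.518 ± 0.111 CPM in mutant brain and 1.01 ± 0.45 CPM in wild-type brain (SD, n = 3 each), a log2 fold change of -0.92 (SE 0.42, edgeR adjusted p = 0.242), without overlap. Of all genes tested in brain, 29.3% did not overlap, counting either direction. In fat body the log2 fold change of LOC5573282 was -1.42 (SE 0.77, edgeR adjusted p = 0.828). LOC5573296, LOC5573297 and LOC5564528 had brain log2 fold changes of -0.02, 0.54 and -0.52. In fat body none of the 6 was called with edgeR or DESeq2, and 1 had an unadjusted p under 0.05, where 0.234%, 2.77% and 7.85% of all genes met these rules. That gene was LOC5573294, at 25.5 ± 20.0 CPM in mutant fat body and 8.76 ± 4.27 CPM in wild-type fat body (SD, n = 3 each). Its log2 fold change there was 1.60 (edgeR adjusted p = 0.576), and the groups overlapped.

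In wild type these 6 genes were higher in fat body than in brain, by 1.76 to 3.81 on the log2 scale, each called by edgeR. Of 12859 genes tested, 66.2% were called in this contrast, 33.3% higher and 32.9% lower in fat body. The weakest of these calls, that of LOC5573282 (adjusted p = 0.0322), did not hold in a fit of the 6 wild-type libraries alone (0.0593), nor without wild-type brain replicate 1 (0.111) or 2 (0.0972), or wild-type fat body replicate 2 (0.0942) or 3 (0.104). Summed over the 11 genes, the family stood at 37.5 ± 5.7 TPM in mutant brain and 20.3 ± 3.5 TPM in wild-type brain, and at 68.4 ± 16.8 TPM in mutant fat body and 81.7 ± 15.2 TPM in wild-type fat body (SD, n = 3 each). The 4 genes made up 42.5 ± 5.4% of that sum in mutant brain and 24.8 ± 3.9% in wild-type brain. They are part of the sum and were proposed with their rise in mutant brain known. Nothing is therefore read from the brain sums or shares. In fat body the 4 genes made up 6.79 ± 4.21% in the mutant and 3.99 ± 1.38% in wild type. LOC5575671 alone made up 46.5% in mutant fat body and 64.0% in wild-type fat body.

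**Figure D2:**
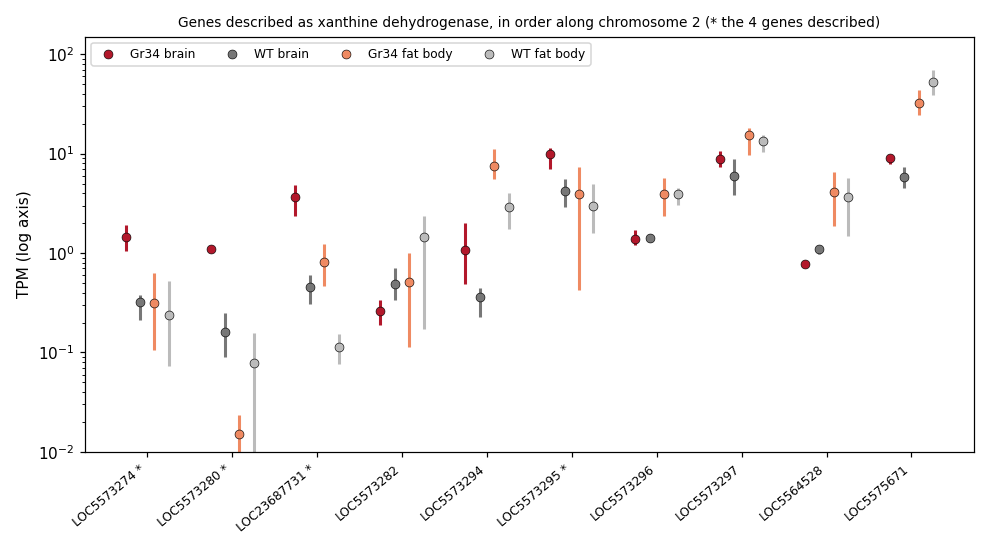
TPM on a log axis (y axis) of the 10 xanthine dehydrogenase genes with counts, in order along chromosome 2 (x axis; an asterisk marks the 4 genes described). Points are group means and lines run from the lowest to the highest of 3 libraries, cut off at the bottom of the axis where a library was at 0; LOC5573280 is lowest in mutant fat body, and LOC5575671 is highest in both fat body groups.

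The genes around the 4 were examined along the block. Of the 18 other genes of the block, 15 were tested in brain and 1 was called with edgeR (8.86% of all genes). With edgeR 3 had an unadjusted p under 0.05 (22.8% of all genes), and DESeq2 called 2 of 18 (11.7% of all genes). The called gene, LOC23687491 (esterase B1, a carboxylesterase known in Culex for amplification in insecticide-resistant strains), was named after its values were seen. It had 4.87 ± 1.60 CPM in mutant brain and 1.61 ± 0.35 CPM in wild-type brain (SD, n = 3 each), with a log2 fold change of 1.62 (edgeR adjusted p = 0.0254). It kept the call only without mutant brain replicate 3 when the 6 brain libraries were left out in turn, and its adjusted p otherwise reached 0.0932. The median log2 fold change of these 15 genes was 0.17. In fat body 17 were tested and none was called with edgeR or DESeq2, which called 0.234% and 2.77% of all genes. Of these 17, 3 had an unadjusted p under 0.05 with edgeR, against 7.85% of all genes. LOC23687491 had 30.1 ± 16.6 CPM in mutant fat body and 13.4 ± 3.2 CPM in wild-type fat body (SD, n = 3 each). Its log2 fold change there was 1.23 (edgeR adjusted p = 0.519), and the groups overlapped.

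Among the nearest neighbours, LOC110675449, an uncharacterized gene between LOC5573280 and LOC23687731, had 9.82 counts over the 3 mutant brains, against 4.30 over the 3 wild-type brains, too few to test. In fat body it had 9.67 counts in the mutant and 37.9 in wild type, a log2 fold change of -1.81 (SE 0.56, edgeR adjusted p = 0.382). Upstream of LOC5573274, LOC5573277 (multidrug resistance protein homolog 49, an ABC transporter) had log2 fold changes of -0.03 in brain and -1.44 in fat body, and LOC5573279 (pre-mRNA-processing factor 6, a splicing factor) had -0.19 and -0.02, none of them called. Between LOC5573274 and LOC5573280, the uncharacterized LOC110676245 had a brain log2 fold change of -0.98 and a fat body one of 0.04, and LOC5575662 had 3.03 counts over mutant brains against 14.7 over wild-type brains. LOC5573285, the homologue of Usher syndrome type-1G protein, had log2 fold changes of 0.23 in brain and 0.20 in fat body. LOC110676247, near LOC5573295, had 0.48 in brain. LOC110675449 and LOC5575662 were not tested in brain, nor LOC110676247 in fat body. Where tested, none of the neighbours named in these sentences was called by edgeR in either tissue.

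**Figure D3:**
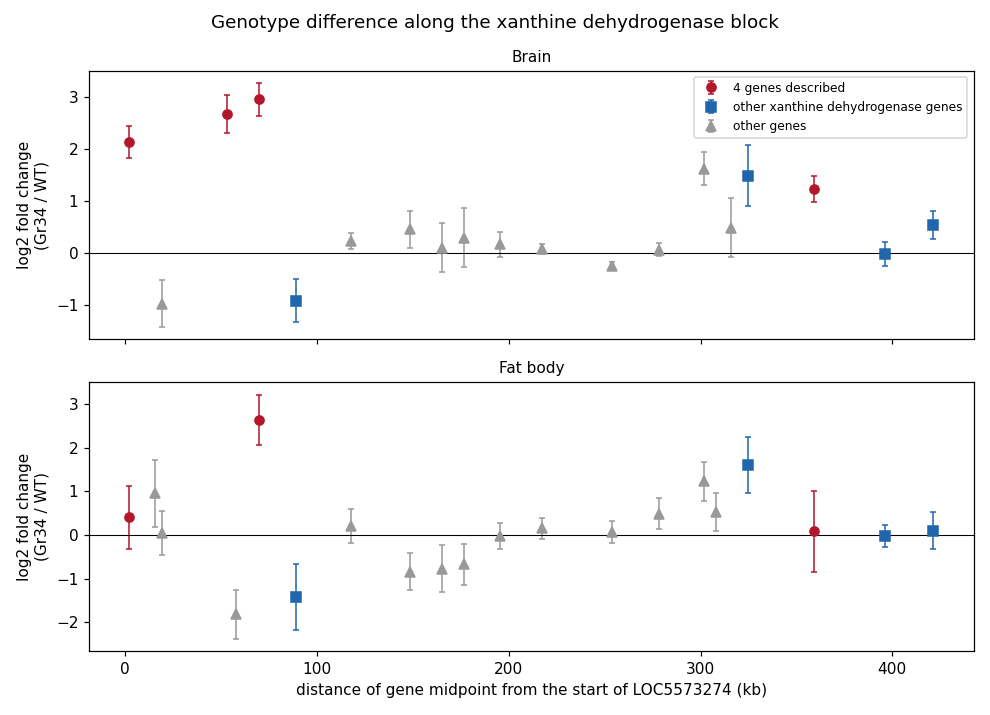
Log2 fold change, mutant over wild type, with SE bars (y axis) of each gene tested in the block against the distance of its midpoint from the start of LOC5573274 in kb (x axis), in brain (top) and fat body (bottom). Red circles are the 4 genes described, blue squares other xanthine dehydrogenase genes and grey triangles other genes; in brain the red points lie between 1.23 and 2.96, while the genes between them lie on both sides of 0.

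Likeness of pattern was measured by the Pearson correlation of log2 CPM with LOC23687731 over the 12 libraries, among 12858 genes. The libraries share tissue and genotype, so these values are a description. The 5 highest were LOC5575840 (bone morphogenetic protein receptor type-1B, a receptor kinase; r = 0.953), LOC5570656 (uncharacterized; 0.947), LOC110680885 (endoplasmic reticulum aminopeptidase 1-like, a peptidase; 0.936), LOC5574244 (V-type proton ATPase subunit d 1, part of a proton pump; 0.930) and LOC5572913 (pupal cuticle protein Edg-78E; 0.926). LOC5574244 stood at 75.1 ± 9.4 CPM in mutant brain and 25.0 ± 2.3 CPM in wild-type brain, and at 56.7 ± 16.7 CPM in mutant fat body and 15.9 ± 4.4 CPM in wild-type fat body (SD, n = 3 each). LOC5575840 stood at 42.6 ± 6.2 CPM in mutant brain and 18.7 ± 2.0 CPM in wild-type brain, and at 27.7 ± 4.2 CPM in mutant fat body and 15.0 ± 1.9 CPM in wild-type fat body (SD, n = 3 each).

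The other 3 xanthine dehydrogenase genes were less like LOC23687731 over all 12 libraries. LOC5573274 had r = 0.756 (rank 161), LOC5573280 had r = 0.605 (rank 529) and LOC5573295 had r = 0.518 (rank 1117). Within the 6 brain libraries the correlations were 0.994, 0.977 and 0.965 in the same order, where both genotypes set the spread. Within the 6 fat body libraries they were 0.235, -0.449 and 0.150.

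Genes that feed purines to xanthine dehydrogenase, take urate further or handle nitrogen were followed as lists chosen by description. Across 6 lists, which leave the 4 genes out, 58 genes were tested in brain: 3 rose, 1 fell and 54 did not pass, against 8.86% of all genes called. The median log2 fold change of the listed genes was 0.19, and that of all genes tested was 0.01. DESeq2 called 11 of 60, 10 of them higher, against 11.7% of all genes called.

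In purine synthesis, 2 of 12 tested genes rose with edgeR, against 4.60% of all genes called higher. Of the 12, 7 had an unadjusted p under 0.05 with edgeR, all of them higher. Over all genes 22.8% met that rule in either direction, and 1435 of 11848 were higher. DESeq2 called 3 of 13, all higher, against 11.7% of all genes called in either direction. LOC5578622, the multifunctional protein ADE2 of the purine ring pathway, had 24.1 ± 0.9 CPM in mutant brain and 13.6 ± 3.2 CPM in wild-type brain (SD, n = 3 each), a log2 fold change of 0.84 (edgeR adjusted p = 0.0269). LOC5573654, the trifunctional purine biosynthetic protein adenosine-3, had 10.1 ± 2.0 CPM in mutant brain and 5.03 ± 1.35 CPM in wild-type brain (log2 fold change 1.03, edgeR adjusted p = 0.0411). The most abundant gene of the list was LOC5564225, ribose-phosphate pyrophosphokinase 1, which makes the sugar donor of purine synthesis, at 87.4 ± 7.0 CPM in mutant brain and 76.0 ± 3.2 CPM in wild-type brain.

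In purine breakdown, 1 of 13 tested genes fell and none rose with edgeR, while DESeq2 called 4, 3 of them higher. Over all genes edgeR called 4.60% higher and 4.26% lower, and DESeq2 called 11.7%. The gene that fell with edgeR was LOC5579205, allantoicase, which acts after uricase on the route from urate to urea, at 2.64 ± 0.68 CPM in mutant brain and 11.2 ± 1.2 CPM in wild-type brain (SD, n = 3 each; log2 fold change -2.06, edgeR adjusted p = 0.00208). LOC5573896, uricase, which oxidises urate, had 8.32 ± 5.93 CPM in mutant brain and 1.78 ± 1.5 CPM in wild-type brain, without overlap but not called (edgeR adjusted p = 0.137). Of all genes tested in brain, 13.6% were likewise higher in the mutant without overlap.

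In nitrogen disposal 1 of 15 tested genes rose, against 4.60% of all genes, namely LOC5575552, described as hepatic arginase, the enzyme that splits arginine into urea and ornithine. It had 5.48 ± 1.92 CPM in mutant brain and 2.26 ± 0.64 CPM in wild-type brain (SD, n = 3 each), a log2 fold change of 1.30 (edgeR adjusted p = 0.0488). LOC5577984, glutamine synthetase 2, which fixes ammonia, had 828 ± 90 CPM in mutant brain and 983 ± 212 CPM in wild-type brain. None of 5 molybdenum cofactor genes and none of 7 genes of pigment and urate granule transport was called in brain with edgeR, with 1 and 2 at an unadjusted p under 0.05 and 1 and 0 called by DESeq2, where 8.86%, 22.8% and 11.7% of all genes met these rules. LOC5565143, the sulfurtransferase MOCS3 of cofactor synthesis, had 20.0 ± 2.1 CPM in mutant brain and 20.2 ± 1.0 CPM in wild-type brain. LOC23687419, protein white, an ABC transporter of eye pigment precursors in Drosophila, had 21.9 ± 3.4 CPM in mutant brain and 26.6 ± 0.6 CPM in wild-type brain.

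Of the 4 calls, only that of allantoicase held when each brain library was left out in turn. ADE2 (adjusted p up to 0.103) and arginase (up to 0.179) kept theirs only without wild-type brain replicate 3, and adenosine-3 (up to 0.148) only without that library or mutant brain replicate 2. In the fit of all 12 libraries none of the 4 was called. Within wild type the genes of these calls were higher in fat body than in brain. The log2 difference, fat body minus brain, was 4.74 for ADE2, 4.86 for adenosine-3, 6.23 for arginase and 1.6 for allantoicase.

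In fat body 58 genes of the lists were tested and none was called with edgeR or DESeq2, which called 0.234% and 2.77% of all genes. Of the 58, 5 had an unadjusted p under 0.05 with edgeR, 3 higher and 2 lower, against 7.85% of all genes. The median log2 fold change of the listed genes was -0.14, and that of all genes was -0.0036. Uricase, abundant there, had 418 ± 57 CPM in mutant fat body and 479 ± 262 CPM in wild-type fat body (SD, n = 3 each). Allantoicase had 55.0 ± 32.5 CPM in mutant fat body and 35.0 ± 23.3 CPM in wild-type fat body.

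**Figure D4:**
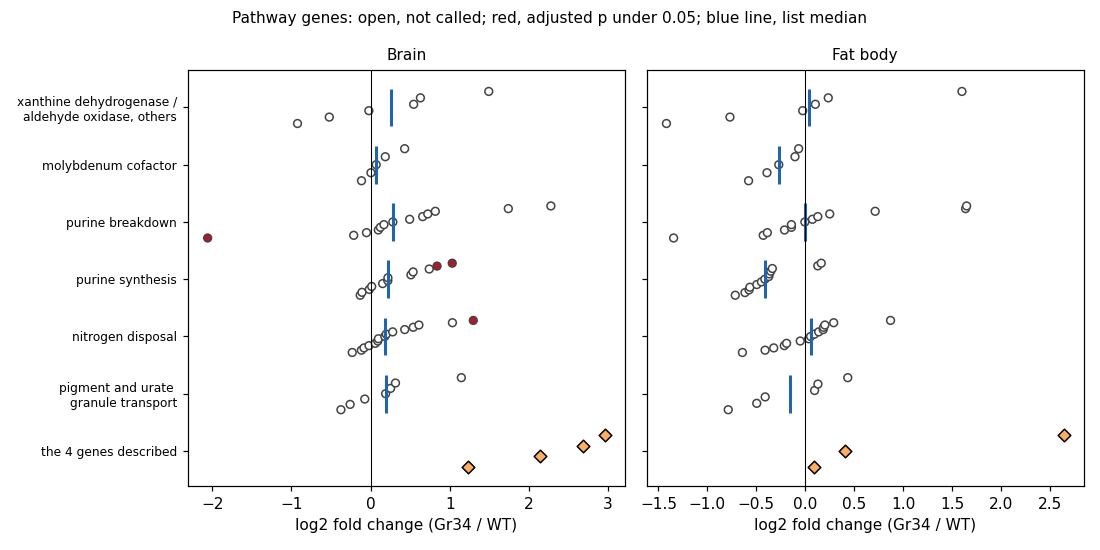
Log2 fold change, mutant over wild type (x axis, its own range in each panel), of every tested gene in 6 pathway lists (rows) in brain (left) and fat body (right). Circles are genes, red where the adjusted p is under 0.05, blue lines are list medians and orange diamonds are the 4 genes described, whose calls are not shown; 4 circles are red in brain and none in fat body.

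Marker shares moved with genotype in brain. Fat body markers took 0.135 to 0.150% of counts in mutant brain and 0.0933 to 0.127% in wild-type brain, and gut markers took 0.162 to 0.170% in mutant brain and 0.124 to 0.160% in wild-type brain, neither overlapping. Of 14 fat body markers tested in brain 1 was called higher (LOC5579047, described as hexamerin-1.1), and of 36 gut markers 6 were called higher and 1 lower, against 4.60% of all genes called higher and 4.26% lower. LOC5578573, also described as hexamerin-1.1, had a brain log2 fold change of -0.08 and was not called. Photoreceptor markers were lower in mutant brain without overlap, as given above, with 3 of 45 called higher and 3 lower. Neuron and glia markers overlapped between genotypes, with 1 of 17 called lower. Malpighian tubule markers took 0.462 to 0.500% in mutant brain and 0.472 to 0.489% in wild-type brain. Of the markers listed, 1 of 24 for fat body and 42 of 131 for gut had no count in mutant brain, against 2 and 49 in wild-type brain. With the genotypes averaged, some listed fat body markers were higher in fat body than in brain, such as apolipophorins (log2 difference 1.98). Others were lower there, such as vitellogenin-3 (-0.85), so the summed share is a rough gauge of fat body.

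The part of these shares in the brain levels of the 4 genes, or of the genes of the pathway lists, was not tested. In fat body, gut markers took 0.0912 to 1.16% of counts in the mutant and 0.132 to 0.223% in wild type, and ovary and germline markers 0.0942 to 0.423% in the mutant and 0.0683 to 0.346% in wild type, overlapping in both cases. Their part in the fat body levels was not tested.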

How the data were processed

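Poly(A) RNA was fragmented and copied with random primers (NEBNext Ultra II), per the labels' protocols. The submitters' processing notes list FastQC, STAR, featureCounts (Subread) and DESeq2 without versions. No source used here states the build or how strand and multi-mapped reads were handled; all 11 xanthine dehydrogenase genes had the same position in AaegL5.0 as in the files. The authors deposited estimated counts per gene (25.4% of values had a fraction), TPM values, and, per the file headers, DESeq2 tables with log2 fold changes and p-values.

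Estimated counts were rounded. Each tissue was fitted apart with edgeR 4.0.16 in R 4.3.3 (TMM, filterByExpr with a count of 10 and a total of 15, robust two-sided quasi-likelihood test, Benjamini-Hochberg over all genes tested, threshold 0.05), and fat body against brain in a fit of 12 libraries. Alternatives were DESeq2 1.42.0, edgeR with library size only or with DESeq2 size factors, no filter, 1 CPM in 3 libraries, one fit of all 12 libraries, a replicate block, limma 3.58.1 on log2(TPM + 1) and log2(TPM + 0.1), single genotypes for the tissue contrast, and each library left out. Fits were tested on simulated data. Intervals cover counting error only.

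The 4 genes and all lists were chosen with earlier results of these data known. Lists were text patterns on gene descriptions; 3 of 24 fat body markers and 1 nitrogen gene match by spelling only, and the photoreceptor list holds arrestin domain proteins. Named genes were the 4, per list and tissue the called gene of lowest adjusted p, higher and lower apart, and the most abundant gene, the 5 most like LOC23687731, and 2 neighbours on each side; adenosine-3 was named because few genes were called.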

Additional observations from a re-analysis of the deposited data

Results flagged for a closer look

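LOC110675449, the uncharacterized gene between LOC5573280 and LOC23687731, had genotypes apart in opposite directions in the 2 tissues, higher in mutant brain and lower in mutant fat body. The brain minus fat body genotype difference was 3.08 on the log2 scale, and the interaction term of edgeR's quasi-likelihood test in the fit of 12 libraries did not pass (adjusted p = 0.169). Its brain level rests on 9.82 counts in the mutant and 4.30 in wild type. As unscaled counts, at 1.93 to 5.48 and 0.64 to 2.17 per library, the brain groups overlapped. LOC5573654, adenosine-3 of purine synthesis, showed the same pattern, with a brain minus fat body difference of 1.59 (adjusted p = 0.178 for the same interaction term). Its fat body values were 82.5 to 107.7 CPM in the mutant and 107.8 to 219 CPM in wild type, so the groups there were barely apart. Of all genes tested, 29.3% did not overlap between genotypes in brain and 11.2% in fat body, counting either direction. The share apart in opposite directions was not counted, so nothing is read from the pattern of these genes.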

How the results depend on the processing

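In brain 1050 genes and 4 genes of the pathway lists were called; DESeq2 called 1730 and 11, the fit of all 12 libraries 343 and 0, and leaving out each library gave 405 to 979 and 1 to 7. In fat body 27 genes were called; the count was 381 with DESeq2, 1 with library size only, 55 with no filter, 362 in the fit of all 12 libraries, 50 with log2(TPM + 0.1) and 0 to 37 with each library left out. No member of the pathway lists was called in fat body under any alternative. The labels do not say whether the replicate numbers pair the samples, and the main fits treated them as unpaired. Deviations of same-numbered libraries did not correlate in every pair, and not every library was most like its own number. With 3 libraries for each group this cannot settle whether they were paired. With the numbers as a replicate block the fat body count was 54 and esterase B1 lost its brain call (adjusted p = 0.0506).

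The 4 genes were chosen with their rise in these same brain libraries known, so the brain values are a description and no check of it. The brain log2 fold changes of the 4 genes stayed positive throughout. With log2(TPM + 1), which understates low genes, they were 1.65 for LOC23687731, 0.86 for LOC5573280 and 0.87 for LOC5573274, and with log2(TPM + 0.1) LOC5573280 was at 2.25; with each library left out it ran from 2.47 to 3.17. In fat body LOC23687731 was called with DESeq2 (2.68) and in the fit of all 12 libraries (2.69), but not in the main fit or the other alternatives. In the main fit it passed the filter on low counts through the mutant libraries alone. As said above, fat body is no independent check of the brain difference, so nothing is read from these calls in fat body. LOC5573295 turned to -0.13 with log2(TPM + 0.1); with each library left out it ran from -0.96 to 1.26, and LOC5573274 from -0.14 to 1.20. LOC5573280 could not be tested in fat body, nor LOC5573274 there at 1 CPM in 3 libraries. In the tissue contrast averaged over genotypes LOC5573274 was at -1.01 with library size only, -0.92 with no filter and -0.94 with the replicate block, and it ran from -1.33 to -0.71 with each library left out. In wild type alone the tissue difference was -0.09 for LOC5573274, -0.62 for LOC5573280 and 0.22 for LOC5573295. For the wild-type tissue difference, 3 alternatives and each wild-type library left out were added after seeing the data. LOC23687731 was at -1.38 with the 6 wild-type libraries alone and ran from -2.04 to -0.99 with each library left out. With each left out LOC5573280 ran from -1.12 to 0.0016, LOC5573274 from -0.89 to 0.37 and LOC5573295 from -0.88 to 0.66.

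Signs turned in the cases that follow. In brain LOC5565143 was at -0.0046 with DESeq2, -0.0030 with its size factors and -0.0096 in the fit of all 12 libraries, and LOC5573296 at 0.0063 with library size only. In fat body LOC5573296 was at 0.0084 and LOC5573279 at 0.0065 in the fit of all 12 libraries, LOC5573896 at 0.027 with the replicate block, and LOC110676245 at -0.0031 with log2(TPM + 1) and -0.017 with log2(TPM + 0.1). With each library left out, brain values ran from -0.046 to 0.090 for LOC5565143, -0.24 to 0.085 for LOC5573296 and -0.20 to 0.064 for LOC5573277. Fat body values ran from -0.094 to 0.33 for LOC110676245, -0.77 to 0.24 for LOC5564225, -0.17 to 0.14 for LOC5565143, -0.25 to 0.21 for LOC5573279, -0.058 to 0.43 for LOC5573285, -0.13 to 0.13 for LOC5573296, -0.20 to 0.64 for LOC5573297, -0.52 to 0.24 for LOC5573896, -0.65 to 0.50 for LOC5575552 and -0.16 to 0.56 for LOC5577984. The causes were not tested.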
